A study of Homo sapiens with 4 samples.

Results

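The genes described here are those whose Gene Ontology biological process text names the cell cycle, mitosis, cell division or DNA replication. They were taken from the gene symbols that stood alone in the annotation of a probe set, by a rule on the annotation text. The rule computes no difference between groups, but it was chosen with earlier results of these data known. The rule searched that text for 'cell cycle', 'mitotic', 'mitosis', 'cell division' or 'DNA replication' and left out histone, ribosomal protein, zinc finger and solute carrier symbols together with 9 single genes, among them CENPN and JUN. Counts of genes that rose or fell in the module therefore do not include those 9. How those genes responded to DHT is not given here. The set of all tested probe sets, used for comparison below, was not cut in this way. Shares of the module and of all tested probe sets are therefore not fully like for like. For a symbol with several probe sets the rule would take the brightest. It gave 85 of 2447 symbols, each measured by 1 probe set. The annotation table names few of its transcripts, and its process text was not used here for 104 probe sets, so that many familiar cell cycle genes are not among the 85. The module therefore samples the cell cycle machinery thinly.

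RNA came from LNCaP, a human prostate cancer line that responds to androgen, on 4 Affymetrix arrays, 1 for each of 4 groups. The groups were siControl with vehicle (ethanol), siControl with 10 nM dihydrotestosterone (DHT, the potent natural androgen), siPOTEF-AS1 with vehicle, and siPOTEF-AS1 with 10 nM DHT. POTEF-AS1 is an antisense long noncoding RNA, and the design asked how its knockdown changes androgen-dependent expression. All 4 groups were kept in phenol red-free medium with 2.5% charcoal-treated serum for 3 days and were transfected 48 h before vehicle or DHT was added. How long the hormone acted is not stated in the sources used here. No group had a second array, so every level below is that of 1 array and none has an SD.

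The array values are log2 signals, in which 1 unit is a doubling. Medians of the arrays ran from 6.72 to 6.77, and the arrays correlated with each other at 0.988 to 0.995 over 33297 probe sets. No probe set was named POTEF-AS1, so the knockdown itself is not analysed here. None of 16 LNCaP and prostate epithelium markers was measured under its name. Of 22 markers of other cell types, only the basal keratins KRT5 and KRT15 were measured by name, and both lay below the brightness floor described next.

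A probe set counted as bright enough to test when its mean over the 4 arrays reached the median of all distinct annotated probe sets, a log2 signal of 6.82. This left 13094 probe sets, and 65 of the 85 genes were among them. The other 20 genes, with signals from 3.21 to 6.92, are given without a test. The 4 arrays were fitted together in limma with siRNA and hormone as additive terms, and p-values were adjusted by the Benjamini-Hochberg method over all 13094 probe sets with a threshold of 0.05. This fit has 1 residual degree of freedom per probe set and takes the DHT effect as equal in both siRNA arms. In whole cultures, fewer dividing cells and less transcript per cell cannot be told apart.

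A dividing cell copies its DNA in S phase and separates the copies in mitosis. In S phase, replication factor C (RFC) opens the ring-shaped clamp PCNA and loads it onto DNA, so that the polymerases stay attached. In mitosis, kinetochores assemble on each centromere and couple it to spindle microtubules, and a checkpoint holds the cell until every chromosome is attached. Cyclins and their kinases set the order of these steps, and checkpoint and arrest genes stop them. In LNCaP cells androgen is known to alter growth, stimulating or slowing it depending on dose.

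With DHT a small set of these genes fell and fewer rose. Of the 65 tested genes, 9 fell, which is 13.8%, against 8.97% of all tested probe sets. These were RFC1, CASC5, RFC3, MLF1IP, SPC24, CCNG2, TUBA4A, CTCFL and DDX11. Another 3 rose, which is 4.62% against 7.19% of all tested probe sets, and these were RAB4A, USO1 and SGSM3. Neither count covers the genes left out by name, so the comparison with all tested probe sets is limited. The other 53 tested genes did not pass, and their mean DHT differences ran from -0.41 to 0.34. The median mean DHT difference was -0.06 over the 65 genes and -0.03 over all tested probe sets. Both DHT arrays lay below both vehicle arrays for 32 of the 65 genes (49.2%, against 35.1% of all), and above them for 12 (18.5%, against 25.3%). With the arrays quantile-normalized again over all probe sets, 7 of the 65 fell and 4 rose, against 6.82% and 7.32% of all, so that the balance of calls depends in part on scaling, over all probe sets too.

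**Figure D1:**
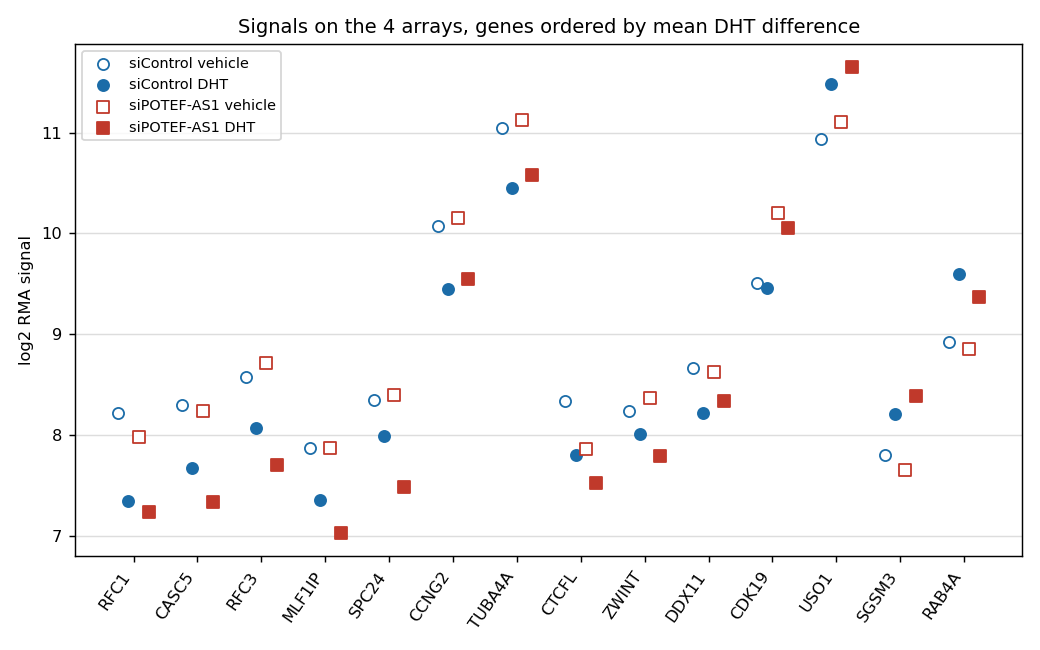
Log2 RMA signals of the 12 genes called for DHT, with ZWINT and CDK19 beside them, 1 point per array. Open symbols are vehicle and filled symbols DHT, circles siControl and squares siPOTEF-AS1; for RFC1 the vehicle arrays read 8.22 and 7.98 and the DHT arrays 7.35 and 7.23, and for CDK19 the split runs by siRNA and not by hormone.

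Among the 16 genes annotated to DNA replication, 10 were tested, and 2 fell, 1 rose and 7 did not pass. The 2 that fell are both subunits of the clamp loader. RFC1, its large subunit, read 8.22 with vehicle and 7.35 with DHT in siControl, and 7.98 and 7.23 in siPOTEF-AS1. Both DHT arrays stood clearly below both vehicle arrays. The mean difference was -0.81 ± 0.09, a 1.75-fold drop, with a limma adjusted p of 0.00197. Here and below, ± is the SE of the limma fit over 4 arrays. That SE leans largely on a variance pooled over all tested probe sets, so it is not the gene's own spread. RFC3, a small subunit, read 8.58 and 8.07 in siControl and 8.71 and 7.70 in siPOTEF-AS1. Its groups did not overlap either, and its siPOTEF-AS1 difference of -1.01 was a 2.01-fold drop. The mean difference for RFC3 was -0.76 ± 0.13, with a limma adjusted p of 0.0097.

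RPA3, a subunit of the protein that coats single-stranded DNA, read 7.01 and 6.78 in siControl and 6.70 and 6.90 in siPOTEF-AS1. Its arms differed from vehicle in opposite directions, by -0.23 and 0.20. CHTF18, part of an alternative clamp loader, differed by -0.28 in both arms (limma adjusted p = 0.086). CLSPN (claspin), a mediator of the replication checkpoint, lay below the floor at 6.37 and 5.94 in siControl and 6.49 and 5.78 in siPOTEF-AS1, with both DHT arrays below both vehicle arrays.

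The gene of the replication group that rose, RAB4A, is a small GTPase of endosomal recycling. The description of its row names an HRES-1 antisense Rab transcript. It read 8.92 and 9.60 in siControl and 8.86 and 9.37 in siPOTEF-AS1, a mean difference of 0.60 ± 0.10 and a limma adjusted p of 0.0075. INO80E, a subunit of a chromatin remodeler, differed by 0.37 in siControl and -0.01 in siPOTEF-AS1 and did not pass.

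The promoters of the RFC subunits and of 2 kinetochore genes are printed because each of these genes was called lower with DHT. Those of CCNG2, TUBA4A, CTCFL and DDX11, also called lower, are not printed. Each line runs 5′ to 3′ on the gene's strand from 250 bases before to 50 bases after the start of the gene in RefSeq (GRCh38.p14). They lie at chr4:39366313-39366612 on the minus strand for RFC1, chr13:33817899-33818198 on the plus strand for RFC3, chr19:11155733-11156032 on the minus strand for SPC24, and chr4:184734047-184734346 on the minus strand for MLF1IP. Capitals mark CCAAT, the letters bound by NF-Y, and TTCCCGC or TTGGCGC, forms of the E2F element, on either strand; TTTGAA and TTTAAA, forms of the cell cycle homology element, were searched likewise, and none of these motifs overlapped another.
RFC1: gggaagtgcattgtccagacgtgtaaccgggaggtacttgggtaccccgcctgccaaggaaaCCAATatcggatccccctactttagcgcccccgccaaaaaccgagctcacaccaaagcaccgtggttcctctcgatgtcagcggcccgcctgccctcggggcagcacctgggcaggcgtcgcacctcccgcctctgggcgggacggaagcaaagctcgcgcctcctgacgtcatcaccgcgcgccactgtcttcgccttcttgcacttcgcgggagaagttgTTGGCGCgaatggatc
RFC3: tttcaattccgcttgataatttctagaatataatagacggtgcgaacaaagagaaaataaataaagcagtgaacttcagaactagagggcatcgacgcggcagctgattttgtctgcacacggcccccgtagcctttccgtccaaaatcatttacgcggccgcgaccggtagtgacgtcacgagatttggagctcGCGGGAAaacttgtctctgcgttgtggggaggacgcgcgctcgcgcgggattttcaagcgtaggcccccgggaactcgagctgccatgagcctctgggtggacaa
SPC24: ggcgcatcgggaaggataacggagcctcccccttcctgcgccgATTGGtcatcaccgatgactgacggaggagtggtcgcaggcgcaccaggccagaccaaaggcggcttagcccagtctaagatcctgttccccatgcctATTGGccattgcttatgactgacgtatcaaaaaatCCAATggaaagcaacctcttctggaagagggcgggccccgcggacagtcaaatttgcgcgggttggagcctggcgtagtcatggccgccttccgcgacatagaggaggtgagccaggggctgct
MLF1IP: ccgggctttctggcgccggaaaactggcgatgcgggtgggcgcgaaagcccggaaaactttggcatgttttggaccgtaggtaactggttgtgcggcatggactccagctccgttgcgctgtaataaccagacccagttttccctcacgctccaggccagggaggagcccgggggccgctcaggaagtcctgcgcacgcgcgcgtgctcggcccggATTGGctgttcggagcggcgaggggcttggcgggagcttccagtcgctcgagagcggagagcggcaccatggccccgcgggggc

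RFC1 holds 1 CCAAT, at position -188 from the gene start, and TTGGCGC at 34. RFC3 holds TTCCCGC at -55 and no CCAAT. SPC24 holds CCAAT at 3 positions, -207, -109 and -74, and MLF1IP holds it at -34. RefSeq gave a promoter for 71 of the 85 genes and for 8 of the 9 that fell. CCAAT was present in 3 of those 8 promoters and in 15 of the 44 of tested genes not called, against 34.6% of all 35116 promoters. TTCCCGC or TTGGCGC was present in 3 of the 8 and in 10 of the 44 promoters of tested genes that were not called, 16 of 71 in the whole module, against 9.23% of all. TTTGAA was present in 0 of the 8 and TTTAAA in 1, against 15.2% and 12.2% of all. AGAACA, a core of the androgen response element, was present in 1 of the 8, that of DDX11, against 14.8% of all. These are letter matches only.

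Of the 35 genes annotated to division, 26 were tested, and 3 fell, 0 rose and 23 did not pass. The median mean DHT difference of the 26 was -0.08, and 20 of them (76.9%) were below 0, against 55.2% of all tested probe sets. That share was 60.0% in the DNA replication group, 66.7% in arrest and checkpoint and 47.4% in other cell cycle annotation. In siControl 17 of the 26 (65.4%) were below 0, against 54.3% of all, and in siPOTEF-AS1 21 of the 26 (80.8%), against 56.2% of all. With a trend in signal intensity removed from each array, 17 of the 26 (65.4%) had a mean difference below 0, against 49.7% of all.

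CASC5 (ENSG00000137812, current symbol KNL1, GRCh37 chr15:40886218-40956540, plus strand) is the kinetochore scaffold that recruits checkpoint kinases. It read 8.30 and 7.67 in siControl and 8.23 and 7.33 in siPOTEF-AS1, with no overlap between DHT and vehicle. The mean difference was -0.76 ± 0.11, a 1.70-fold drop, with a limma adjusted p of 0.0039. SPC24, a subunit of the NDC80 complex that grips microtubules, read 8.35 and 7.99 in siControl and 8.40 and 7.48 in siPOTEF-AS1. DHT was lower in each arm, by 0.36 and by 0.92, and the mean difference was -0.64 ± 0.14 (limma adjusted p = 0.0227). The SPC24 call was lost when the arrays were quantile-normalized again and when the intensity trend was removed. It was also lost without a brightness floor, as were most DHT calls of the module.

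CCNG2 is an unconventional cyclin associated with cell cycle exit rather than with progression. It read 10.08 and 9.45 in siControl and 10.15 and 9.55 in siPOTEF-AS1. Its differences of -0.62 and -0.60 were nearly equal in the 2 arms, and their mean was -0.61 ± 0.09 with a limma adjusted p of 0.0055. CCNG1, its paralog and a target of p53, read 12.01 and 11.84 in siControl and 12.06 and 11.70 in siPOTEF-AS1 and did not pass (limma adjusted p = 0.119).

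ZWINT, which links the kinetochore to the RZZ checkpoint complex, lay just outside the threshold. It read 8.24 and 8.01 in siControl and 8.37 and 7.79 in siPOTEF-AS1, a mean difference of -0.41 ± 0.11 and a limma adjusted p of 0.0522. DHT was lower in both arms. SETD8 (current symbol KMT5A), a histone H4 methyltransferase that acts in mitosis, was just outside on the other side, at 7.68 and 7.96 in siControl and 7.65 and 8.06 in siPOTEF-AS1 (limma adjusted p = 0.0506). Its row describes a pseudogene on an unplaced contig.

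Most division genes did not pass. The condensin subunit NCAPD2 read 10.03 and 9.92 in siControl and 10.12 and 9.71 in siPOTEF-AS1 (limma adjusted p = 0.158). Securin (PTTG1), which restrains sister chromatid separation, differed with DHT by 0.07 in siControl and -0.0049 in siPOTEF-AS1. UBE2S, a ubiquitin-conjugating enzyme of the anaphase-promoting complex, read 9.35 and 9.51 in siControl and 9.28 and 9.34 in siPOTEF-AS1. Of these 3, no gene passed the test. CCNO, a cyclin, did not pass either, with a mean difference of -0.31 (limma adjusted p = 0.0701). MAD2L1BP, CENPT, PDCD6IP and DIS3L2 had mean differences of -0.02, 0.02, -0.12 and 0.18 and did not pass. CENPV, a centromere protein below the floor, read 6.80 and 6.29 in siControl and 6.92 and 6.41 in siPOTEF-AS1, so that both DHT arrays were lower. CDC26, HAUS8 and NEK6, also below the floor, had mean DHT differences of 0.03, -0.25 and 0.06.

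**Figure D2:**
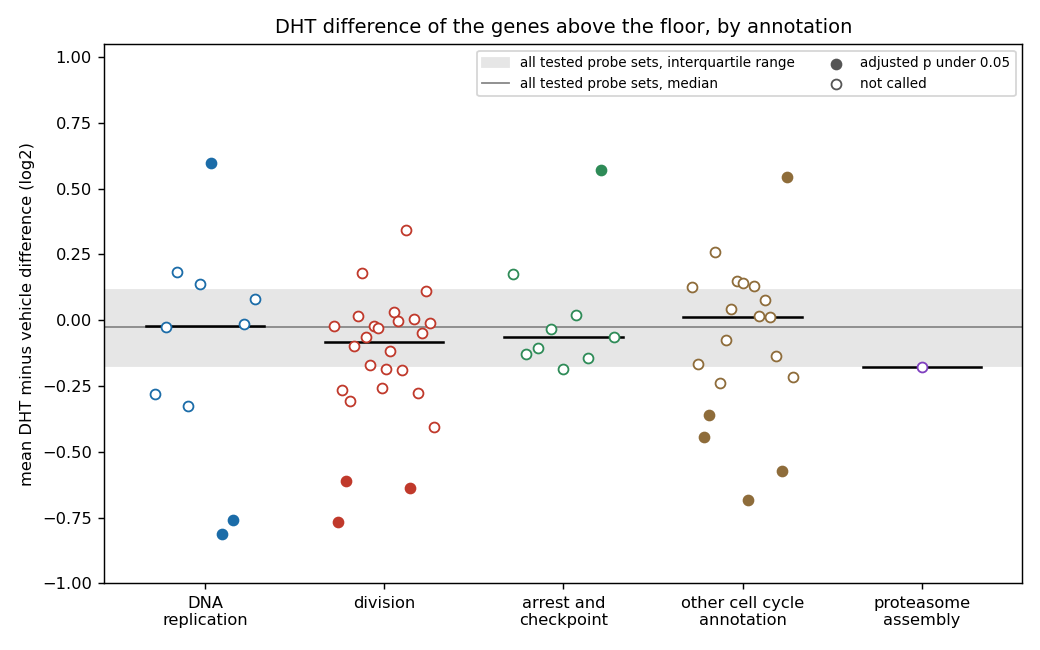
Mean DHT minus vehicle difference (log2) of the 65 tested genes, 1 point per gene, by annotation group; filled points passed an adjusted p of 0.05, black bars are group medians, and the grey band and line are the interquartile range and the median of all 13094 tested probe sets. In the division group 20 of 26 points lie below 0.

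Of the 12 arrest and checkpoint genes, 9 were tested, and 0 fell and 1 rose. The gene that rose, SGSM3, is a Rab GTPase-activating protein. It read 7.80 and 8.20 in siControl and 7.65 and 8.39 in siPOTEF-AS1, a mean difference of 0.57 ± 0.11 with a limma adjusted p of 0.0149. The DHT arrays did not overlap the vehicle arrays. GADD45A, a stress-induced arrest gene, read 7.12 and 7.16 in siControl and 7.10 and 6.80 in siPOTEF-AS1 and did not pass. CRADD, an adaptor of caspase activation, differed by 0.31 in siControl and 0.04 in siPOTEF-AS1.

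The 21 genes with another cell cycle annotation held 19 that were tested, of which 4 fell and 1 rose. MLF1IP (current symbol CENPU) is a subunit of the inner kinetochore. It read 7.87 and 7.35 in siControl and 7.87 and 7.03 in siPOTEF-AS1, a mean difference of -0.68 ± 0.11 with a limma adjusted p of 0.0075. The 2 vehicle arrays were alike, and DHT was lower in both arms. TUBA4A, an alpha tubulin, read 11.05 and 10.45 in siControl and 11.13 and 10.58 in siPOTEF-AS1, with a mean difference of -0.57 ± 0.09 (limma adjusted p = 0.0073). It was among the brightest genes of the module, and its arms were nearly equal.

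CTCFL, a paralog of the insulator protein CTCF, read 8.34 and 7.80 in siControl and 7.86 and 7.52 in siPOTEF-AS1. The DHT array of siControl lay just below the vehicle array of siPOTEF-AS1, and both siPOTEF-AS1 arrays lay below the siControl array of the same treatment. The mean DHT difference was -0.44 ± 0.10 with a limma adjusted p of 0.0247, and the description of the row names an HMG box transcript. DDX11, a helicase of sister chromatid cohesion with near-identical copies in the genome, read 8.66 and 8.22 in siControl and 8.62 and 8.34 in siPOTEF-AS1. Its mean difference was -0.36 ± 0.10 with a limma adjusted p of 0.0459, and it passed in 4 of 9 other settings only. The averaging of probe sets, among those 4, could not differ from the main fit.

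USO1, a tethering factor of vesicle transport whose annotation includes the mitotic cell cycle, rose. It read 10.94 and 11.49 in siControl and 11.10 and 11.65 in siPOTEF-AS1, equal differences of 0.55 (mean 0.55 ± 0.09), with a limma adjusted p of 0.0086. LIN37, a subunit of the DREAM repressor complex, differed by 0.11 and 0.18, and GPS2, a corepressor subunit, by 0.08 and 0.21. DYNC1I2, a dynein intermediate chain, differed by 0.44 in siControl and 0.07 in siPOTEF-AS1. None of these last 3 passed. PSMG2, a proteasome assembly chaperone and the only gene of its group, did not pass either.

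The wider pathway was read through 10 lists of cell cycle genes with 420 genes in all. Only 31 were measured under their name, of which 26 belong to the module, and 24 were bright enough to test. Of these 24, 6 fell with DHT and 0 rose, where 8.97% of all tested probe sets fell and 7.19% rose. All 6 belong to the module and are counted above, so this is not a second result. The lists were also chosen with earlier results of these data known. The genes left out of the module by name, CENPN among them, are not among the 31, so these counts do not cover them. Of the tested list genes outside the module, CDC20, CCNL2 and CDK11B, none passed. The 6 were RFC1 and RFC3 of the replication machinery, where 3 genes were tested, CASC5 and SPC24 of the kinetochore list (5 tested), MLF1IP of the S phase list (1 tested) and CCNG2 of the cyclins and cyclin-dependent kinases (6 tested). None of 5 tested genes of the anaphase-promoting complex and spindle checkpoint list passed. CDC20, the activator of that complex and no member of the module, read 9.69 and 9.50 in siControl and 9.62 and 9.41 in siPOTEF-AS1 (limma adjusted p = 0.2).

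The DHT difference was measured in each of the 2 siRNA arms, which share no array. Across the 65 genes the differences in the 2 arms correlated with r = 0.81 and rho = 0.76, against r = 0.80 and rho = 0.63 over all tested probe sets. Genes are not independent replicates, so this is a description. In siControl 4 of the 65 were lower by 1.5-fold or more, namely CASC5, CCNG2, RFC1 and TUBA4A (2.99% of all tested probe sets were). In siPOTEF-AS1 6 were, namely CASC5, CCNG2, MLF1IP, RFC1, RFC3 and SPC24 (5.12% of all). The higher side held RAB4A alone in siControl (3.89% of all) and SGSM3 alone in siPOTEF-AS1 (3.79%). CASC5, CCNG2 and RFC1 were lower by 1.5-fold or more in both arms (2.08% of all), and no gene was higher in both (2.76% of all). At 2-fold or more only RFC3 qualified, lower in siPOTEF-AS1, where 1.06% of all tested probe sets were that much lower and 1.37% higher. In siControl those shares were 0.603% and 1.56%, and none of the 65 genes was among them.

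**Figure D3:**
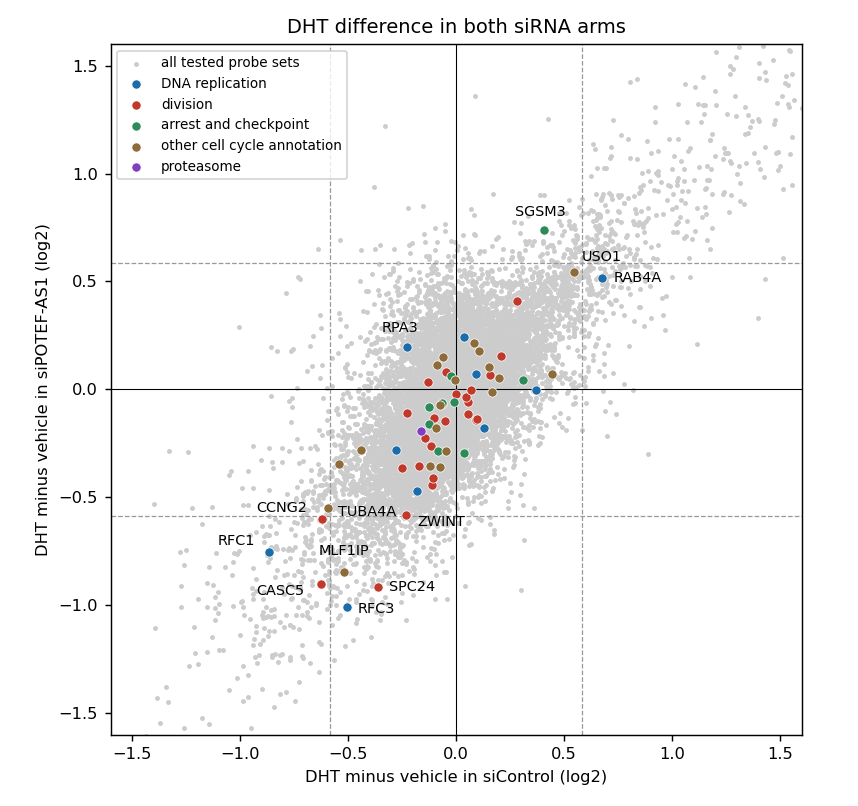
DHT minus vehicle difference (log2) in siControl (x axis) and siPOTEF-AS1 (y axis) for the 65 tested genes, coloured by annotation group, over all tested probe sets in grey; dashed lines mark 1.5-fold, and grey points past 1.6 on either axis are not drawn. SPC24 and RFC3 lie lower on the y axis (-0.92 and -1.01) than on the x axis (-0.36 and -0.51).

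The difference between the 2 DHT responses leaves no residual degree of freedom and was not tested. No gene of the 65 reached 1.5-fold in it, against 1.49% of all tested probe sets higher and 1.19% lower with siPOTEF-AS1. With each array centred on its median, SPC24 and RFC3 passed it, both lower, 2 of the 65 against 2.28% of all. The median over the 65 was then -0.16 (-0.07 as deposited), and that over all tested probe sets -0.13 (-0.04 as deposited). The most negative values were -0.56 for SPC24, -0.50 for RFC3, and -0.37 for both INO80E and DYNC1I2. The most positive were 0.42 for RPA3, 0.33 for SGSM3, 0.21 for the transcriptional repressor GFI1B and 0.20 for the splicing factor SRSF5. Of the 9 genes that fell, the drop was larger in siPOTEF-AS1 for 4 and larger in siControl for 5. Over all 1174 probe sets that fell, it was larger in siPOTEF-AS1 for 69.8%. With each array centred on its median, it was larger in siPOTEF-AS1 for 6 of the 9, and for 80.7% of all.

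With knockdown, 0 of the 65 genes and 0 of the 13094 probe sets (0.0%) passed the threshold in the limma fit. At an unadjusted p under 0.05 there were 3 of the 65, CDK19, CTCFL and PTTG1 (4.62%, against 6.0% of all tested probe sets). CDK19 (ENSG00000155111, GRCh37 chr6:110931181-111136519, minus strand), a kinase of the Mediator complex annotated to cell division, stood apart. It read 9.51 with vehicle and 9.46 with DHT in siControl, and 10.20 and 10.06 in siPOTEF-AS1. Both siPOTEF-AS1 arrays were above both siControl arrays, by 0.69 with vehicle and 0.59 with DHT. CDK19 was 1 of only 3 tested probe sets (0.0229%) higher by 1.5-fold or more in both hormone treatments, and its mean difference was 0.64 ± 0.09, with a limma adjusted p of 0.213. Over 10 other settings that adjusted p ran from 0.000442 to 1.0 and passed 0.05 in 3.

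CDK19 was also the only gene of the 65 past 1.5-fold in either treatment alone. Of all tested probe sets, 0.29% were higher and 0.42% lower by that much in vehicle, 0.458% and 0.466% in DHT, and 0.084% were lower in both. None of the 65 was past 2-fold, where 0.0% were higher and 0.0382% lower in vehicle and 0.0535% and 0.00764% in DHT.

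The other 64 genes had mean knockdown differences from -0.38 to 0.17. CTCFL was lower by 0.48 with vehicle and by 0.28 with DHT (limma adjusted p = 0.507), and PTTG1 by 0.19 and 0.27 (limma adjusted p = 0.806). Neither passed. Some of the genes that fell with DHT differed little between the siRNAs in vehicle and were lower with siPOTEF-AS1 in DHT. For SPC24 the knockdown difference was 0.05 in vehicle and -0.51 in DHT, for RFC3 it was 0.13 and -0.37, for MLF1IP it was 0.00 and -0.33, and for CASC5 it was -0.07 and -0.34. The other genes that fell did not share this. RFC1 (-0.23 and -0.12) and CTCFL were nearer 0 in DHT. CCNG2 (0.08 and 0.10), TUBA4A (0.08 and 0.12) and DDX11 (-0.04 and 0.12) were not lower in DHT. GADD45A, which did not pass the DHT test, stood at -0.02 and -0.35. Each rests on 1 pair of arrays, and the step from vehicle to DHT is the difference of the DHT responses given above, not a second measurement of it.

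**Figure D4:**
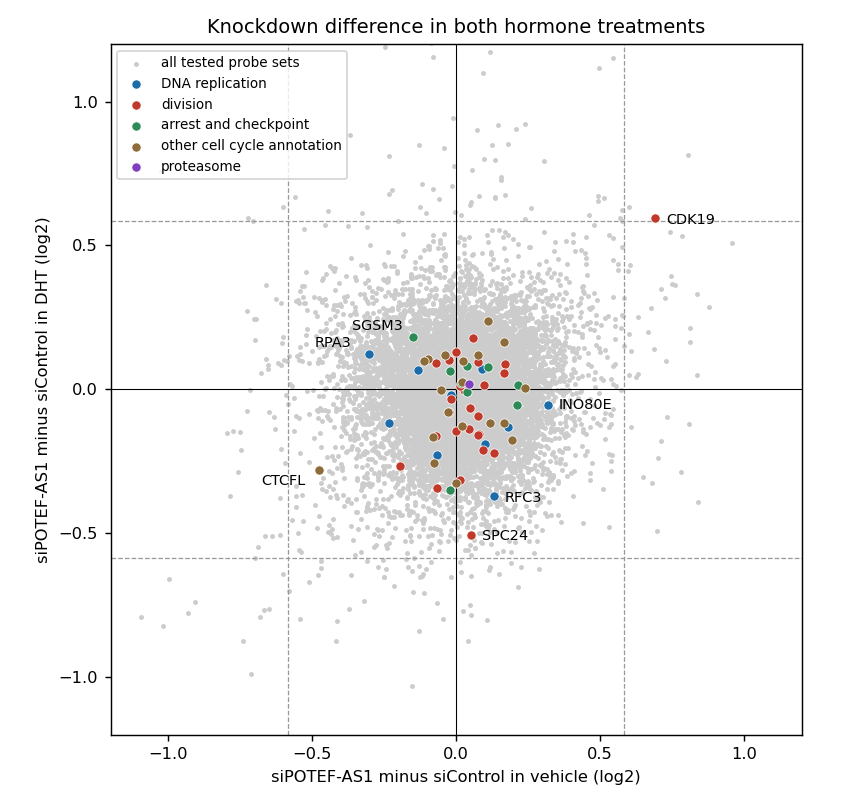
siPOTEF-AS1 minus siControl difference (log2) in vehicle (x axis) and in DHT (y axis) for the 65 tested genes, coloured by annotation group, over all tested probe sets in grey; dashed lines mark 1.5-fold. CDK19 lies at 0.69 and 0.59, apart from the other genes, and SPC24 at 0.05 and -0.51.

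Across the 65 genes the knockdown differences in the 2 hormone treatments correlated with r = 0.30 and rho = 0.05. Over all tested probe sets the values were r = 0.07 and rho = 0.03. CDK19, far from the other genes in both treatments, weighs on the r of the 65, and r without it was not computed. The median knockdown differences of the 65 were 0.03 in vehicle and -0.02 in DHT, against 0.03 and -0.01 over all tested probe sets.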

How the data were processed

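Per the submitters' processing notes, the authors made the deposited log2 signals with Affymetrix Expression Console and RMA, with no versions named. RMA corrects background, gives the arrays a common distribution and summarises probes on the log2 scale, so that changes in total RNA per cell are removed and differences of dim probe sets are compressed. A second deposited table held the same values to within 1.78e-15. No detection call was used here, and having 4 arrays limits precision.

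Of 33297 probe sets, 26722 were annotated and 26187 of these had distinct values. Gene symbols were those of the table (2540 probe sets with a single symbol) or, for 156 probe sets, were matched through RefSeq accessions. Coordinates of genes are GRCh37 as the table gives them. One member's symbol was stored as a calendar date and it is called ENSG00000164402. Groups were assigned from the source name labels. The fit used limma 3.58.1 in R 4.3.3 (lmFit and eBayes), with Python 3.11.15 and pandas 2.3.3 for the rest. It was also run on simulated data, whose variances were drawn from its own prior and which held no siRNA effect. That run cannot show how well the fit holds for these arrays. The prior of the fit is estimated from 1 residual degree of freedom per probe set. A single pair of arrays was described by its difference and a threshold of 1.5-fold, with no test.

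Genes named were up to 10 in each direction by mean DHT difference, up to 6 by mean knockdown difference and up to 4 by the difference of the responses. Every called gene and the members of the cell cycle lists were also named. A few others, such as CHTF18 and PSMG2, were added, and the rest are given as counts. Each gene went to 1 annotation group, the first that applied of proteasome, DNA replication, division, arrest and checkpoint, and other. The members and lists were chosen with earlier results of these data known. The alternatives were other scalings, filters on brightness, fits and fold thresholds.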

Additional observations from a re-analysis of the deposited data

Results flagged for a closer look

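In 2 genes the knockdown difference had opposite signs in the 2 hormone treatments, each beyond the spread of that difference over all tested probe sets (a robust SD of 0.14 in vehicle and 0.15 in DHT). For SGSM3 it was -0.15 in vehicle and 0.18 in DHT, a change of 0.33. For DYNC1I2 it was 0.20 in vehicle and -0.18 in DHT, a change of -0.37. Each value comes from 1 pair of arrays, and the difference between the treatments was not tested. The share of all tested probe sets that meet this rule was not counted. Over all of them the knockdown differences in the 2 treatments correlated with r = 0.07 only, so 2 such genes are not shown to be unusual.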

How the results depend on the processing

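Through its siRNA term the fit compared DHT with vehicle within each siRNA arm. No further pairing was possible because each group holds 1 array, which leaves no replicate numbers to block on. Leaving out an array leaves no residual degree of freedom. RFC1, CASC5 and CCNG2 passed the DHT test in every alternative that tested them. Averaging the probe sets of a symbol is counted among the settings of each gene. It could change no call, because each gene had 1 probe set. Without a brightness floor 3 genes fell and 0 rose, so that 9 of the 12 calls were lost, over 26187 probe sets tested, and 2 genes passed 1.5-fold with knockdown in vehicle. With the floor at the 75th percentile, which kept 31 genes, 4 fell and 2 rose, against 16.7% and 14.9% of all 6547 probe sets then tested. The module's higher share of falling genes was thus not seen in that setting. There 3 genes passed 1.5-fold with DHT in siControl (5 at the floor used in the report) and 1 in siPOTEF-AS1 (7 at the floor used in the report), and 1 gene was called for knockdown. Centring the arrays, or letting the prior follow intensity, also called 1 gene for knockdown. In all 3 settings that gene was CDK19, with adjusted p of 0.000442, 0.00465 and 0.00275 in the order centred, 75th percentile and trend, and the probe sets called were 89, 51 and 77 against 0. After centring the prior degrees of freedom were infinite, against 6.1, and 0 genes passed 1.5-fold with knockdown in DHT. At a fold of 2 the counts were 0 and 1 for DHT in siControl and siPOTEF-AS1 and 0 and 0 for knockdown. Over all probe sets without a floor, 462 rose (1.76%) and 384 fell (1.47%), against 941 and 1174. Quantile normalization gave 7 genes lower and 4 higher, against 9 and 3. Over 28 genes and 10 settings, 498 of 524 comparisons kept their direction and side of the threshold, 15 no longer passed, 6 newly passed and 5 changed sign. All 5 were knockdown differences near 0 that were not called. Direction could change only where the arrays were rescaled, because the other settings leave each difference as it is. GFI1B, at -0.0061 as deposited, was at 0.017 after centring, 0.0090 after quantile normalization and 0.0080 with the trend removed. SRSF5, at 0.0029 as deposited, was at -0.0046 after quantile normalization and -0.014 with the trend removed. Removing the intensity trend and a prior by maximum likelihood were chosen after seeing the data. Signal over background of single probe sets was not known.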

Other observations

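Genes of the nuclear pore, which also act at mitotic kinetochores, differed little. NUP160 read 9.29 with vehicle and 9.15 with DHT in siControl and 9.46 and 9.23 in siPOTEF-AS1, and AHCTF1 read 9.70 and 9.80 in siControl and 9.78 and 9.64 in siPOTEF-AS1. RAN, the GTPase of nuclear transport and spindle assembly, read 9.88 and 9.77 in siControl and 9.89 and 9.62 in siPOTEF-AS1. TERF2, a telomere protein, read 9.22 and 9.13 in siControl and 9.14 and 8.96 in siPOTEF-AS1. None of these 4 genes passed the DHT test. KDM8, a JmjC-domain protein below the floor, read 5.55 and 6.09 in siControl and 6.14 and 5.91 in siPOTEF-AS1, so that its arms went opposite ways. RAN, TERF2 and KDM8 were chosen after their values were seen.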
